A study of Mus musculus with 15 samples.

Results

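Heart allografts and liver allografts, both harvested on postoperative day (POD) 5, were compared directly in absolute transcript level. The comparison used 6 arrays of the 15 in the series, 3 of each graft. The groups were taken from the sample labels, and nothing in the values was used to choose them. The comparison addressed which leukocyte, interferon, stromal and cell division transcripts were more abundant in either rejecting graft, apart from the genes of cardiomyocytes and hepatocytes.

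The heart allografts were B10 hearts placed heterotopically in the abdomen of CBA recipients, an H-2b to H-2k combination. The liver allografts were B10.BR livers placed orthotopically in B10.D2 recipients, an H-2k to H-2d combination. All mice were male, and no immunosuppressive treatment of either group is described in the labels or methods. Organ, donor strain, recipient strain and surgical procedure therefore differed together between the groups, and their parts in any difference below cannot be told apart. The labels do not say whether the 3 arrays of a group came from 3 animals, while the methods speak of 3 cases and, in their passage on PCR, of 3 mice a time point, without saying which array came from which animal. P-values measure the spread between these arrays, which may be partly technical if they share an animal. Heart controls and liver controls, 3 arrays each, are given beside some results. The labels call them normal tissue, whereas the study's text also speaks of isografts or syngeneic grafts.

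In an unmodified recipient, an allograft is invaded by recipient T cells and natural killer (NK) cells that kill with granzymes and perforin and secrete interferon-gamma. Interferon-gamma acts through IRF1, among other factors, on macrophages, endothelium and parenchyma. It induces the CXCR3 chemokines, guanylate-binding proteins, immunity-related GTPases, the immunoproteasome and MHC class II. Monocytes recruited by CC chemokines become graft macrophages, and fibroblasts and endothelium respond with matrix genes and adhesion molecules. The liver differs from the heart before any graft: it holds Kupffer cells, a fenestrated sinusoidal endothelium and vitamin A-storing stellate cells, and mouse liver allografts are often accepted where hearts are rejected.

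Levels are log2 normalized intensities, and a difference is always the heart allograft mean minus the liver allograft mean on that scale, with its standard error (SE) from limma. A probe was called at a Benjamini-Hochberg adjusted P-value under 0.05 over all 41155 probes tested. A gene was read from its brightest probe, and levels were compared only within a probe. Of all probes, 6748 (16.4%) were called higher and 5284 (12.8%) lower in the heart allografts. Of the 18213 genes read from 1 probe, 3919 (21.5%) were higher and 3103 (17.0%) lower, and the median difference of these genes was 0.06. Counts below are to be read against those last shares. The heart and liver arrays did not overlap for 53.0% of the same genes. A statement of no overlap below therefore describes the values and sets no gene apart. Where a transcript was not well above background on any array of a group, the size is given as at least N-fold, computed against the lowest signal still well above background. In bulk tissue, fewer cells of a type and less RNA per cell cannot be told apart.

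The labelled organs matched their defining genes. All 14 cardiomyocyte genes measured were higher in the heart allografts, and all 12 hepatocyte genes measured were lower. Myh6, the atrial and ventricular myosin heavy chain of the adult mouse heart, was at least 3337-fold higher in the heart allografts, and Alb at least 17128-fold higher in the liver allografts. Arrays of 1 graft correlated at 0.973 or more and arrays of different grafts at 0.863 to 0.875. The 75th percentile of raw signal was 394 to 710 on the heart arrays and 338 to 478 on the liver arrays, 56.2 to 67.0% and 58.2 to 66.2% of probes lay well above background, and 0 spots were saturated.

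Heart allograft 2 stood apart from the other hearts. Its Myh6 level was 13.69 against 16.35 and 15.98, its Ptprc level 11.82 against 13.27 and 13.53, and its level of S100a8, a neutrophil alarmin, 11.72 against 9.05 and 9.59. It was also the dimmest heart array, with a 75th percentile of raw signal of 394 against 706 and 710. On it 56.2% of probes lay well above background, against 67.0% and 61.3%. The part of signal in its levels was not tested. Slide also differed: the 3 heart allografts and liver allograft 3 shared a slide, and liver allografts 1 and 2 were on another. Of the 309 genes of the leukocyte, interferon, stromal and cell division lists that were called, 232 stayed called whichever array was left out. Within the shared slide, where 1 liver array stands for its group and is assumed to vary like the hearts, 159 of the 309 were called. With slide as a block, 221 were called. None of the 309 changed sign with an array left out or within the slide. As these genes were chosen by their calls on the same arrays, that is largely fixed in advance and is no test.

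**Figure D1:**
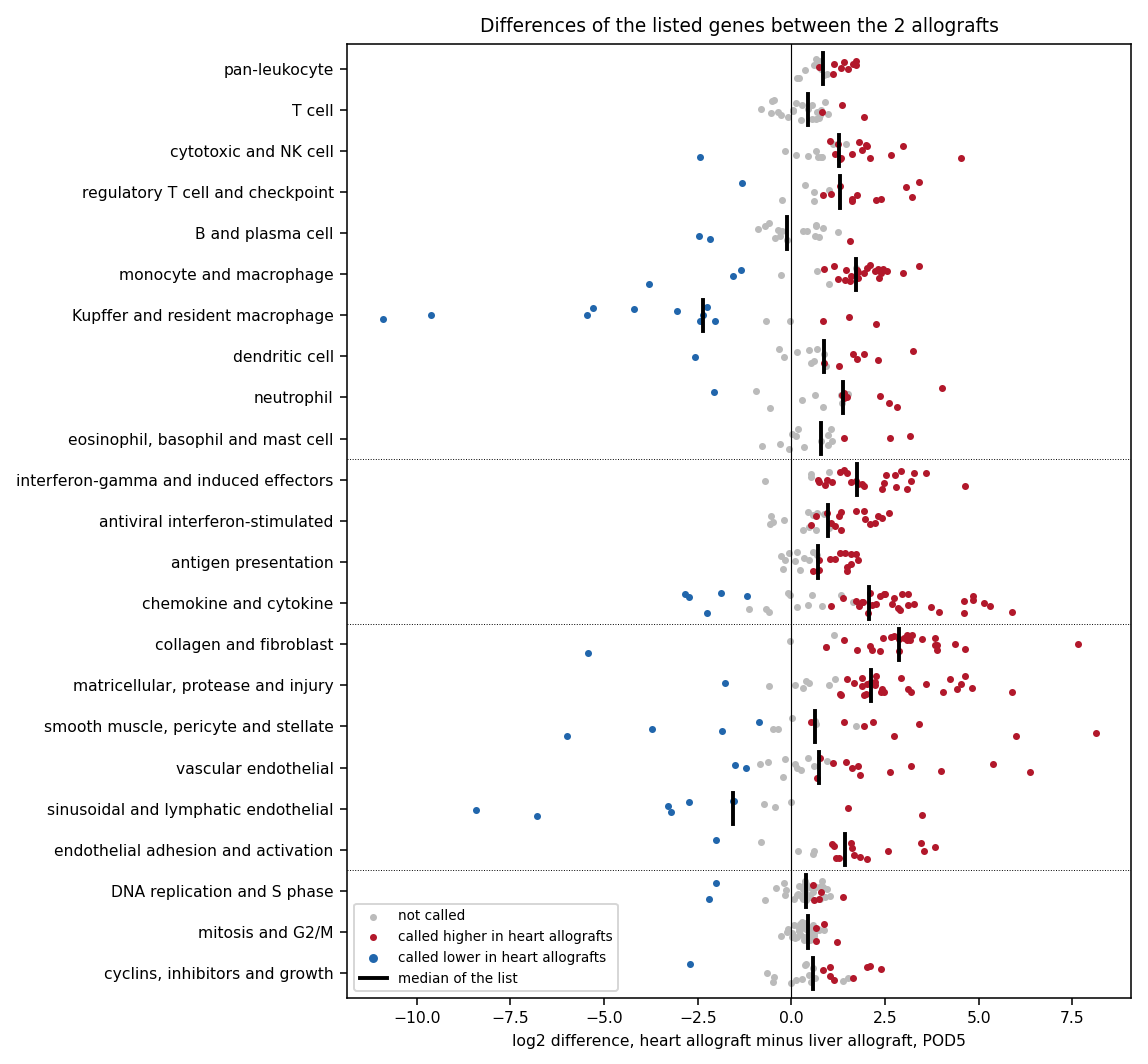
Log2 difference, heart minus liver allograft (x axis), for every measured gene of the 23 leukocyte, interferon, stromal and cell division lists (rows); each point is a gene, coloured when called, and the bar is the list median. Medians lie right of 0 for all lists but B and plasma cell (-0.12), Kupffer and resident macrophage (-2.35) and sinusoidal and lymphatic endothelial (-1.55), and are 0.39 and 0.44 for the S phase and mitosis lists.

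Leukocyte transcripts were more abundant in the heart allografts as a family, but unevenly. Of 198 genes measured (207 listed), 80 were higher and 19 lower, with a median difference of 0.84. On the shared slide alone fewer genes of the family were called, as were fewer of all probes. Of the 20 pan-leukocyte genes, 9 were higher and 0 lower, with a median of 0.84. Cd52, a surface glycoprotein of lymphocytes and monocytes, read 15.55, 16.22 and 15.82 in the hearts and 14.23, 14.33 and 14.50 in the livers, a difference of 1.51 (SE 0.20, adjusted P = 0.00405). Arhgdib, a regulator of small GTPases in blood cells, had the largest called difference of the list, 1.73 (SE 0.14, adjusted P = 0.000705). The groups did not overlap for either gene. Ptprc, which encodes CD45, read 13.27, 11.82 and 13.53 against 11.82, 12.01 and 12.42, and it was not called (0.79, 95% interval -0.44 to 2.02, adjusted P = 0.316). The low value was that of heart allograft 2, and without it the difference was 1.30 (adjusted P = 0.0155) and 12 pan-leukocyte genes were called, as without liver allograft 3, whereas within the shared slide 3 were.

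T cell identity genes were seldom called. Of 25 measured, 3 (12%) were higher and 0 lower, with a median difference of 0.43, and the share higher was below the 21.5% of all genes. The CD3 epsilon chain gene Cd3e read 7.95, 7.55 and 8.05 in the hearts and 8.25, 8.51 and 7.64 in the livers. The groups overlapped, and the difference was -0.28 (95% interval -0.97 to 0.40, adjusted P = 0.529). Cd8a, the coreceptor of cytotoxic T cells, read 12.07, 11.22 and 12.27 against 10.77, 11.21 and 11.39, a difference of 0.73 (95% interval -0.10 to 1.56, adjusted P = 0.176). The lowest heart array lay level with the middle liver array. Cd4 read 5.0, 5.50 and 4.99 against 5.63, 5.76 and 5.52, and although every heart array lay below every liver array, the difference of -0.48 was not called (adjusted P = 0.116). Among the genes called were the lymph-node homing receptor gene Ccr7 (1.36, SE 0.24, adjusted P = 0.0111) and Cd2 (0.81), a T cell adhesion receptor, which lost its call without heart allograft 3 (adjusted P = 0.0754). The list depended on single arrays and on slide: without heart allograft 2, 8 genes were higher and 1 lower, Cd8a and Cd4 among them (1.04, adjusted P = 0.0279, and -0.64, adjusted P = 0.0205), without liver allograft 3, 6 were higher, and within the shared slide the median was 0.02.

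The killing programme was higher in the heart allografts. Of 24 cytotoxic and NK cell genes, 14 (58.3%) were higher and 1 lower, with a median of 1.28. Granzyme B (Gzmb) read 14.48, 14.38 and 15.43 in the hearts and 12.80, 13.05 and 13.01 in the livers, a difference of 1.81 (SE 0.31, adjusted P = 0.00905), or 3.51-fold. Perforin (Prf1) read 10.75, 10.78 and 11.81 against 8.78, 9.32 and 8.92, a difference of 2.11 (SE 0.34, adjusted P = 0.00792). Every heart array exceeded every liver array for both. Among the NK receptors, Klrk1, which encodes NKG2D, differed by 1.31 (SE 0.16), Klrg1 by 2.65 (SE 0.34) and Klrb1c by 1.89 (SE 0.19). Gzmc, a granzyme of strongly stimulated killer cells, differed most (4.52, SE 0.62, adjusted P = 0.0042). Granzyme K (Gzmk) ranged from 5.38 to 8.76 among the hearts, and its difference of -0.17 (95% interval -2.48 to 2.14) was not called. S1pr5, a sphingosine-1-phosphate receptor of circulating NK cells, was the gene lower in the hearts (-2.43), and lost its call without heart allograft 1 or liver allograft 1 or 2 (adjusted P of up to 0.0723). With slide as a block, the Gzmb difference was 1.76 with an adjusted P of 0.0629, and within the shared slide 2 genes of the list were called.

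Genes of activated and regulatory T cells and their ligands were also higher in the heart allografts, 11 of 17 against 1 lower, with a median of 1.31. Cd274, which encodes the PD-1 ligand PD-L1, read 13.39, 12.55 and 13.49 in the hearts and 9.69, 9.92 and 10.67 in the livers, a difference of 3.05 (SE 0.37, adjusted P = 0.00278), or 8.27-fold. The second PD-1 ligand, Pdcd1lg2, differed by 3.21 (SE 0.42, adjusted P = 0.00346). The receptor itself, Pdcd1, read 11.04, 10.64 and 11.69 against 10.18, 10.19 and 11.21, overlapped between the grafts and was not called (0.59, 95% interval -0.42 to 1.61, adjusted P = 0.365). The contrast between ligand and receptor was not itself tested. Foxp3, the regulatory T cell factor, was above background on 2 heart arrays and on no liver array, which bounds it at 1.89-fold or more (adjusted P = 0.0236). Leaving out heart allograft 1, 2 or 3 or liver allograft 2 ended that call (adjusted P of 0.0572 to 0.0792). Il2ra, the high-affinity interleukin 2 receptor chain, differed by 3.40 (adjusted P = 0.0251) but had no call without heart allograft 2 or 3 or liver allograft 1 or 2. Maf, which was lower in the hearts (-1.32, adjusted P = 0.047), had none without heart allograft 1, 2 or 3 or liver allograft 2. Without heart allograft 3 or without liver allograft 2, 6 genes of the list were higher, and within the shared slide 2 were.

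Monocyte and macrophage genes split by type. Of 28 general monocyte and macrophage genes, 21 (75%) were higher in the heart allografts and 3 lower, with a median of 1.73, and within the shared slide 13 were higher. Fcgr1, the high-affinity IgG receptor, read 14.35, 14.61 and 14.60 in the hearts and 12.24, 12.14 and 12.22 in the livers, a difference of 2.32 (SE 0.12, adjusted P = 0.000135). Ly6c2, a surface antigen of inflammatory monocytes, differed by 2.34 (SE 0.18), and Clec4e, the mycobacterial cord factor receptor Mincle, by 3.40 (SE 0.45, adjusted P = 0.00362). No values of these genes overlapped between the grafts. Adgre1, which encodes F4/80, differed by 0.87 (adjusted P = 0.0239) and lost its call without heart allograft 1 or 3 or liver allograft 1. Arg1, whose arginase is a urea cycle enzyme of hepatocytes as well as a macrophage gene, was 14-fold lower in the hearts (-3.81, SE 0.34, adjusted P = 0.000861). Mrc1, the mannose receptor of resident macrophages and liver sinusoids, was lower by 1.56 on the log2 scale. The heart control arrays also lay above the liver control arrays for all 21 genes that were higher, with no such share computed over all called genes.

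The Kupffer and resident macrophage list ran the other way, with 10 of 15 (66.7%) lower in the hearts, 3 higher and a median of -2.35 (7 lower and 0 higher within the shared slide). Clec4f, a lectin confined in mice to Kupffer cells, read 1.64, 1.73 and 1.70 in the hearts, below background, and 12.76, 12.66 and 12.34 in the livers, at least 437-fold higher in the livers (adjusted P = 1.61e-06). Cd5l, a secreted macrophage survival factor, read 5.74, 7.13 and 5.21 against 15.75, 15.58 and 15.58, a difference of -9.61 (SE 0.50, adjusted P = 0.000135). The scavenger receptor Marco, the complement receptor Vsig4 and the iron exporter Slc40a1 were lower by 4.20, 5.44 and 5.29 on the log2 scale. Cd163, the haemoglobin scavenger receptor, differed by -2.04 (SE 0.34, adjusted P = 0.00847). Cbr2, a carbonyl reductase, was the gene of the list highest in the hearts (2.26, SE 0.35, adjusted P = 0.00658).

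Of 17 dendritic cell genes, 7 were higher and 1 lower (4 and 1 within the shared slide). Irf8 (1.65, SE 0.17), a factor that dendritic cells and monocytes need, the activation marker Cd83 (1.95, SE 0.32) and the T cell-attracting chemokine Ccl17 (3.26, SE 0.44, adjusted P = 0.00407) were higher in the hearts. Tlr9, the endosomal sensor of CpG DNA, read 10.95, 11.28 and 10.95 in the hearts and 13.64, 13.75 and 13.54 in the livers and was lower (-2.58, SE 0.14, adjusted P = 0.000163). Itgax, which encodes CD11c, was not called (0.87, adjusted P = 0.202), with the value of heart allograft 2, 10.16, inside the range of the livers. Without that array it was called (1.31, adjusted P = 0.0092).

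Neutrophil genes leaned on heart allograft 2. Of 18, 8 were higher and 1 lower with a median of 1.38, without that array 6 were higher and 2 lower with a median of 0.88, and without liver allograft 2, 5 were higher. Camp, the cathelicidin of neutrophil granules, read 5.14, 6.99 and 5.32 in the hearts and was below background in all livers, at least 4.53-fold higher in the hearts (adjusted P = 0.00483). S100a8 read 9.05, 11.72 and 9.59 against 8.93, 8.15 and 8.77, and was not called (1.50, 95% interval -0.34 to 3.35, adjusted P = 0.205). Ltf, the lactoferrin gene, was lower in the hearts (-2.06, SE 0.14, adjusted P = 0.000299). Within the shared slide, 0 of the 18 genes were called higher by limma, although the median there was 1.12. Among 15 eosinophil, basophil and mast cell genes 3 (20%) were higher, a share near the 21.5% of all genes. They were the mast cell proteases Cpa3 (at least 4.70-fold, adjusted P = 0.00901) and Cma1 (2.63, SE 0.32) and the lipoxygenase Alox15. The eosinophil lectin Siglecf was not called (0.33, adjusted P = 0.266), and 6 of the list lay below background on all 6 arrays.

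B and plasma cell genes showed few calls, 1 of 19 higher and 2 lower, with a median of -0.12. Cd79a, a chain of the B cell receptor complex, read 3.78, 4.89 and 3.99 in the hearts and 5.64, 4.57 and 4.53 in the livers, overlapping (-0.70, adjusted P = 0.322). Bank1, a B cell scaffold protein, was lower in the hearts (-2.46, SE 0.20, adjusted P = 0.000613). Jchain, the joining chain of secreted antibody, was higher (1.57, adjusted P = 0.0424), but the call was lost without heart allograft 1, 2 or 3 or liver allograft 1 or 2, and within the shared slide the difference was 0.81.

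**Figure D2:**
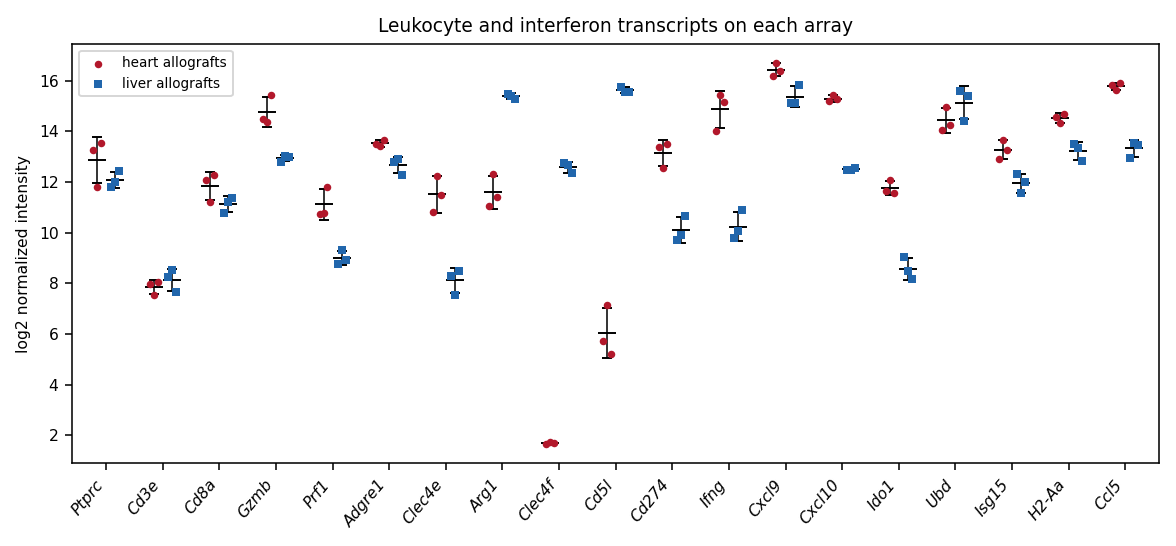
Log2 normalized intensity (y axis) of 19 leukocyte and interferon transcripts on each of the 3 heart (circles) and 3 liver (squares) allograft arrays, with mean and SD; levels are comparable within a gene only. Gzmb, Prf1, Cd274, Ifng, Cxcl10 and Ccl5 separate the grafts upward in the hearts, Clec4f, Cd5l and Arg1 downward, and Cd3e, Cd8a and Ubd overlap.

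Most genes of the interferon lists, which take in a general chemokine and cytokine list, were higher in the heart allografts. Of 126 measured, 83 (65.9%) were higher and 5 lower, with a median of 1.35. The chemokine and cytokine list held 30 of the higher genes and all 5 lower ones. Interferon-gamma itself (Ifng) read 14.02, 15.42 and 15.16 in the hearts and 9.80, 10.05 and 10.88 in the livers. The lowest heart array exceeded the highest liver array, and the difference was 4.63 (SE 0.47, adjusted P = 0.00146), or 24.7-fold. Within the shared slide it was 3.96, with an adjusted P of 0.0503. In the control organs, normalized with the grafts over 12 arrays, Ifng lay between 4.10 and 4.45 in hearts and between 3.56 and 4.80 in livers.

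Of 28 interferon-gamma and induced effector genes, 24 (85.7%) were higher, 0 lower and the median was 1.74. The chemokine gene Cxcl10 read 15.20, 15.43 and 15.27 in the hearts and 12.48, 12.49 and 12.55 in the livers, a difference of 2.80 (SE 0.11, adjusted P = 5.51e-05). Its companion Cxcl9, also a ligand of CXCR3, read 16.21, 16.71 and 16.41 against 15.13, 15.12 and 15.85. The groups stood apart by less than for Cxcl10, at 1.07 (SE 0.26, adjusted P = 0.0297), and the Cxcl9 call was lost without heart allograft 1, 2 or 3 or liver allograft 1 or 2 (differences of 0.93 to 1.21, adjusted P of 0.0559 to 0.0995). Ido1, whose enzyme degrades tryptophan, read 11.63, 12.09 and 11.57 against 9.03, 8.49 and 8.16, a difference of 3.20 (SE 0.28, adjusted P = 0.000789). Nos2, the inducible nitric oxide synthase, was below background in all livers and 5.29, 5.66 and 5.52 in the hearts, at least 3.62-fold higher (adjusted P = 0.000241). Batf2, a factor of activated macrophages, differed by 3.58 (SE 0.19), Gbp5 by 2.92 (SE 0.20) and the feedback inhibitor Socs1 by 2.42 (SE 0.30). Gbp2b was the guanylate-binding protein with the smallest called difference, 0.73, and lost its call without heart allograft 1 or 3 or liver allograft 1 or 2 (adjusted P of up to 0.133). Against this run stood Ubd, which encodes the ubiquitin-like protein FAT10. It read 14.05, 14.98 and 14.27 in the hearts and 15.61, 14.40 and 15.39 in the livers, overlapping, and was not called (-0.70, 95% interval -1.74 to 0.33, adjusted P = 0.291). Of this list, 14 genes were higher within the shared slide.

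Promoters of these genes are shown for the 2 classical elements through which interferons act. The sequences are 300 bases from RefSeq on GRCm38.p6, 250 before to 50 after the start and read along the gene, with the matches named here, on either strand, in capitals. The interferon-stimulated response element was searched as GAAA, any 2 bases, GAAA, and the gamma-activated site as TTCNNNGAA. Cxcl10 (chr5:92348840-92349139, minus strand) held 1 match to the first, and Irf1, the interferon-gamma-induced factor that read 16.39, 15.98 and 16.43 in the hearts and 14.31, 14.43 and 14.44 in the livers (1.87, SE 0.16, adjusted P = 0.000765), held 1 match to the second (chr11:53769764-53770063, plus strand).
Cxcl10: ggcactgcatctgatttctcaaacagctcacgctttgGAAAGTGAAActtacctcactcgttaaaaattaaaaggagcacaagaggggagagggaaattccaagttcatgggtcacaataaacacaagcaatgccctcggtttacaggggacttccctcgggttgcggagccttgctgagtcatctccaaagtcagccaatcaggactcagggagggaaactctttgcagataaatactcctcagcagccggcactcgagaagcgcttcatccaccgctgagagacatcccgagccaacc
Irf1: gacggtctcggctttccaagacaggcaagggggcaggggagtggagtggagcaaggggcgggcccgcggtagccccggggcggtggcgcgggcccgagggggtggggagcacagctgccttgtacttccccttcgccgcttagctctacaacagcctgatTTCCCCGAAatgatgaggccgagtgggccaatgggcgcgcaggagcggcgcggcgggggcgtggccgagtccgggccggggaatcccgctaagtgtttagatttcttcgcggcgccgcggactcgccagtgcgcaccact
Of the 20 interferon-gamma list genes with a promoter in the table, 11 (55%) held the response element and 8 (40%) the gamma-activated site, against 3.99% and 9.55% of all 27025 genes with a promoter. Of 22 antiviral genes, 11 (50%) and 6 (27.3%) did. Cxcl9 and Ubd held neither in this window. These matches describe the windows and are no evidence of binding.

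Of 28 antiviral interferon-stimulated genes, 16 (57.1%) were higher and 0 lower, with a median of 0.98, and within the shared slide 9 were higher. Ifit2, which binds viral RNA, read 11.57, 11.23 and 11.65 in the hearts and 9.31, 8.47 and 8.84 in the livers (2.61, SE 0.25, adjusted P = 0.00123), and Ifit3 differed by 2.42 (SE 0.19, adjusted P = 0.000603). Isg15, a ubiquitin-like modifier, differed by 1.33 (SE 0.28, adjusted P = 0.0193) and lost its call without heart allograft 3 or liver allograft 2 (adjusted P of 0.0634 and 0.0578). The cytosolic RNA sensor gene Rigi was not called (-0.49, 95% interval -1.19 to 0.21), nor was Bst2, which encodes tetherin (-0.57, adjusted P = 0.0916). Other Rigi probes stood at 0.53, 0.48 and -0.02, also not called.

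Of 24 antigen presentation genes, MHC class II and transporter genes among them, 13 (54.2%) were higher and 0 lower, with a median of 0.71. The class II chain gene H2-Aa read 14.58, 14.33 and 14.70 in the hearts and 13.52, 13.34 and 12.83 in the livers (1.30, SE 0.22, adjusted P = 0.00901). H2-Ab1 differed by 1.71 (SE 0.23) and Ciita, the class II transactivator, by 1.15 (SE 0.16). The peptide transporter gene Tap1 differed most, by 1.77 (SE 0.28, adjusted P = 0.00747). H2-M3, a class I gene of the nonclassical kind, was also higher (1.60, SE 0.17, adjusted P = 0.00167). The brightest probes of the class I genes H2-K1, H2-D1, H2-Q7, H2-T23 and B2m were not called. H2-K1 read 17.17, 17.05 and 17.42 against 17.20, 17.18 and 17.44 (-0.06, 95% interval -0.44 to 0.32), while its other probes stood at -0.74 (adjusted P = 0.031, lower in the hearts) and -0.49 (adjusted P = 0.157). H2-D1 differed by -0.28 (95% interval -0.57 to 0.01) and B2m, the class I light chain gene, by 0.24 (95% interval -0.09 to 0.56). These probes sat near the top of the intensity range, with 0 spots saturated. Of the whole list, 7 genes were higher within the shared slide. The H-2 haplotypes of the grafts and recipients also differed, so for H-2 genes allele and level cannot be told apart. Donor and recipient strains differed as well, and an effect of alleles of other genes, in any list, on probe signal was not tested.

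Of 46 chemokine and cytokine genes, 30 (65.2%) were higher and 5 lower, with a median of 2.07. Ccl5, which attracts T cells and monocytes, read 15.82, 15.63 and 15.91 in the hearts and 12.96, 13.55 and 13.47 in the livers (2.46, SE 0.20, adjusted P = 0.000601). The monocyte attractants Ccl2, Ccl7 and Ccl8 differed by 3.72 (SE 0.32), 4.62 (SE 0.40) and 5.30 (SE 0.39). Il6 read 9.58, 10.29 and 10.07 against 7.10, 6.84 and 7.30 (2.90, SE 0.23, adjusted P = 0.000606), Tnf differed by 2.94 (SE 0.38) and Il1b by 2.05 (SE 0.29). The eosinophil attractant Ccl11 had the largest difference, 5.89 (SE 0.93, adjusted P = 0.00697), was highest in heart allograft 2 (10.48 against 7.85 and 8.54) and lay above background on 1 liver array. The genes lower in the hearts were Ccl20 (at least 2.54-fold, adjusted P = 0.00498), Ccl24 (-2.75), Il27 (-1.87), Cxcl12 (-1.19) and Il1a (-2.25), of which Il1a was not called without heart allograft 1 or 3 or liver allograft 1 or 2. A second Cxcl12 probe, above background on all 6 arrays, stood at 0.12 and was not called by limma (adjusted P = 0.816). Nor was a second Il1a probe (-1.36, adjusted P = 0.272). On the shared slide alone 15 genes of the list were higher and 2 lower.

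**Figure D3:**
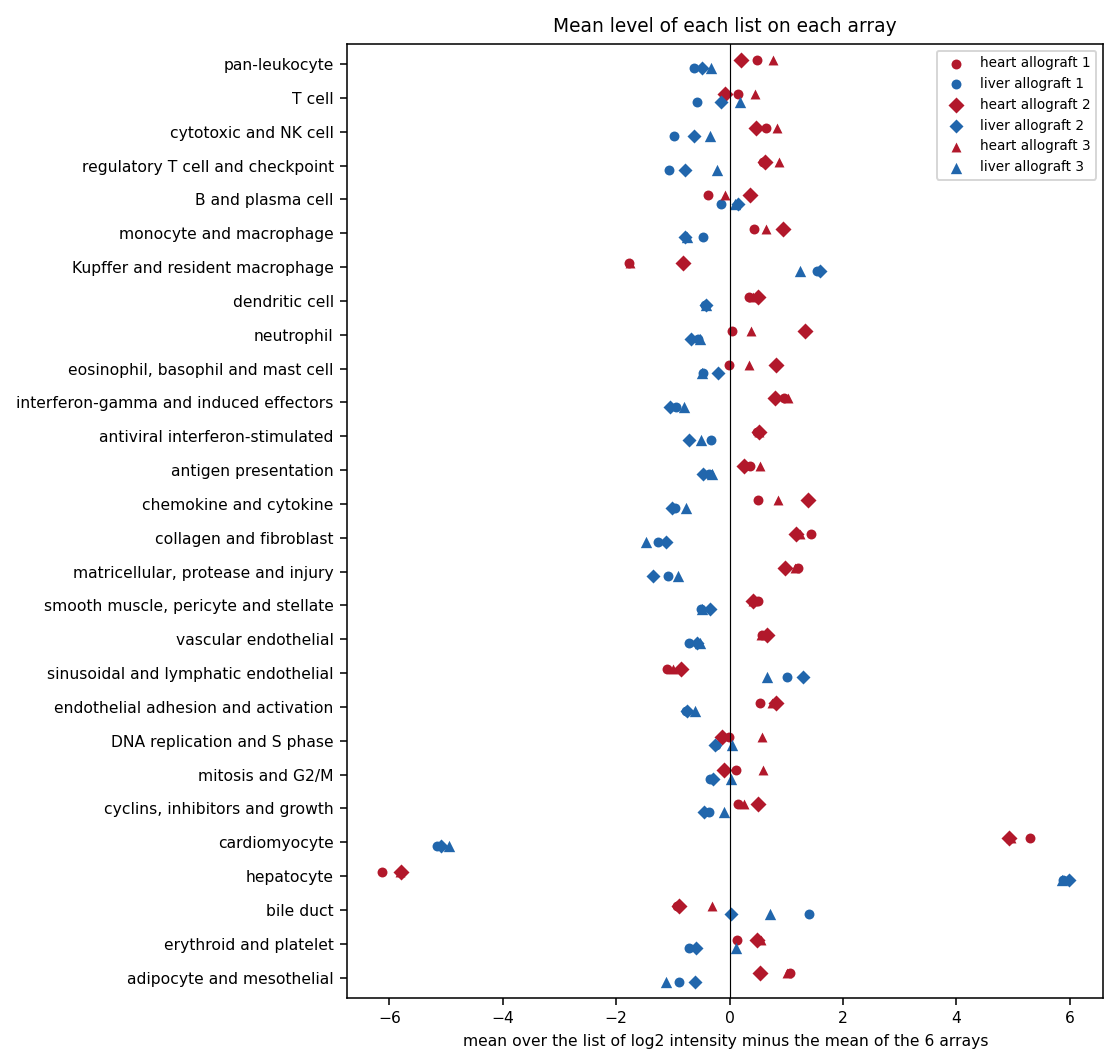
Mean over each list of the log2 intensity minus that gene's mean on the 6 arrays (x axis), for each heart (red) and liver (blue) allograft array, with marker shapes for arrays 1, 2 and 3. Heart allograft 2 is the highest array for neutrophil (1.34) and chemokine (1.38) genes and the lowest heart array for T cell (-0.08) and mitosis (-0.09) genes, where it lies within or next to the livers.

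Most stromal genes were also higher in the heart allografts, 86 of 135 measured (63.7%) against 16 lower, with a median of 1.67. Of 28 collagen and fibroblast genes, 24 were higher and 1 lower, with a median of 2.88. Col1a1, the main fibrillar collagen chain gene, read 14.72, 13.55 and 14.14 in the hearts and 11.35, 11.28 and 10.54 in the livers (3.08, SE 0.38, adjusted P = 0.00277). Mfap5, a microfibril protein of fibroblasts, was below background in all livers and at least 134-fold higher in the hearts (adjusted P = 0.000166). The fibroblast protease gene Fap, also below background in the livers, was at least 10.6-fold higher. Col18a1, the source of endostatin and a collagen that hepatocytes express, was the exception, at 9.78, 9.62 and 9.80 against 15.16, 15.33 and 14.97 (-5.42, SE 0.14, adjusted P = 1.19e-05).

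Of 35 matricellular, protease and injury genes, 27 were higher and 1 lower, with a median of 2.11, and within the shared slide 17 were higher. Timp1, an inhibitor of matrix metalloproteinases, read 16.13, 16.55 and 16.29 in the hearts and 11.35, 11.33 and 11.84 in the livers (4.82, SE 0.20, adjusted P = 6.08e-05), or 28.2-fold. Postn, periostin, read 13.49, 13.16 and 12.71 against 8.45, 8.32 and 8.65 (4.65, SE 0.23, adjusted P = 0.000113), and Tnc, tenascin C, differed by 4.06 (SE 0.39, adjusted P = 0.00121). No heart array overlapped a liver array for these 3 genes. Spp1, osteopontin, read 13.47, 13.37 and 13.67 against 14.39, 13.31 and 14.62 and was not called (-0.60, adjusted P = 0.308), though it was without liver allograft 2 (-0.99, adjusted P = 0.0217). Fn1, the fibronectin that hepatocytes also secrete into plasma, was lower (-1.77, adjusted P = 0.0256) but lost its call without heart allograft 1, 2 or 3 or liver allograft 1 or 2, and taken as the median of its probes the difference was -0.47 (adjusted P = 0.769).

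Some fat markers were also higher in the heart allografts. Of 10 adipocyte and mesothelial genes 5 were higher and 2 lower in the hearts, with differences from -1.79 to 6.79 and a median of 1.06. With normalization over 15 arrays, which left 9 of the genes, the median was 0.18. Adipoq, the adiponectin gene, differed by 6.03 and Cfd, adipsin, by 6.79, and the mean of the list relative to the 6 arrays was 0.54 to 1.06 on the heart arrays and -1.12 to -0.61 on the liver arrays. Lep and Ucp1 were below background on all 6. The part of fat in the stromal differences was not tested. All 24 collagen and 27 matricellular genes that were higher also lay higher in heart controls than in liver controls, on every array. How often this held among all called genes was not computed. Postn, for example, read 15.59 to 16.02 in heart controls and 8.68 to 9.40 in liver controls.

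Of 18 smooth muscle, pericyte and stellate genes, 8 were higher and 4 lower. Des, desmin, a filament of muscle, cardiomyocytes included, differed by 8.12 (SE 0.25, adjusted P = 2.53e-05), and Acta2, smooth muscle actin, read 14.94, 14.35 and 14.69 in the hearts and 12.17, 12.18 and 11.42 in the livers (2.74, SE 0.28, adjusted P = 0.00143). Lrat, which esterifies retinol in hepatic stellate cells, was below background in all hearts and at least 20.7-fold higher in the livers (adjusted P = 1.24e-05). Reln, another stellate cell gene, was lower in the hearts by 3.72 on the log2 scale (SE 0.13).

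The endothelial lists leaned by vessel type, with exceptions in each. Of 24 vascular endothelial genes, 12 were higher and 2 lower, with a median of 0.72 (7 and 0 within the shared slide). Vwf, von Willebrand factor, read 10.46, 10.84 and 10.48 in the hearts and 8.24, 7.75 and 7.89 in the livers (2.63, SE 0.19, adjusted P = 0.000412), and Pecam1, which encodes CD31, differed by 1.45 (SE 0.20, adjusted P = 0.00402). Meox2, a homeobox factor of heart and muscle capillaries, was at least 53.1-fold higher (adjusted P = 2.64e-05). Cdh5, the cadherin of all endothelium, overlapped and was not called (-0.63, 95% interval -1.60 to 0.33). Kdr, the main VEGF receptor, was lower (-1.50, adjusted P = 0.0412), but with any array but heart allograft 2 left out the call was lost (adjusted P of up to 0.117). The other lower gene was Aqp1, a water channel gene (-1.22 when normalized over 12 arrays). Of 12 sinusoidal and lymphatic endothelial genes, 7 were lower and 2 higher, with a median of -1.55. With slide as a block the median was -0.81 and 5 genes were lower, and within the shared slide it was -0.82, also with 5. The hyaluronan scavenger receptor Stab2 read 6.69, 7.49 and 6.66 against 10.20, 10.65 and 9.65 (-3.22, SE 0.35, adjusted P = 0.00188), and the sinusoidal lectin Clec4g differed by -8.41 (SE 0.33, adjusted P = 5.12e-05). Pdpn, podoplanin, a marker of lymphatic vessels and fibroblasts, was at least 7.96-fold higher in the hearts (adjusted P = 0.00216). Fcgr2b, listed as a sinusoidal gene, was the other one called higher, and further probes of it stood at 1.59 and 1.57, also called higher.

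Adhesion and activation genes of endothelium were higher in the heart allografts in 13 of 18 cases (72.2%) and lower in 1, with a median of 1.43. E-selectin (Sele) read 5.54, 5.31 and 6.28 in the hearts and lay below background in all livers, at least 4.21-fold higher (adjusted P = 0.00197). Vcam1, the ligand of the integrin VLA-4, read 13.32, 12.93 and 13.60 against 11.93, 12.01 and 12.11 (1.27, SE 0.20, adjusted P = 0.0066). Ackr3, a chemokine-scavenging receptor, differed by 3.82 (SE 0.24, adjusted P = 0.000246). Madcam1, the gut-homing addressin, was lower (-2.02, SE 0.18, adjusted P = 0.000843). On the 12-array scale Sele lay at 5.56 to 6.49 in heart controls and at 5.11 to 6.10 in heart allografts. Of the 18 genes, 6 were higher within the shared slide.

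Cell division genes were seldom called. Of 101 measured, 17 (16.8%) were higher, a smaller share than the 21.5% of all genes, and 3 lower, with a median of 0.44. Ki-67 (Mki67) read 11.77, 10.46 and 12.17 in the hearts and 11.07, 11.30 and 11.73 in the livers (0.10, 95% interval -1.11 to 1.30, adjusted P = 0.936). Topoisomerase II alpha (Top2a) read 9.25, 7.91 and 9.68 against 8.66, 8.70 and 9.32 (0.05, 95% interval -1.21 to 1.31, adjusted P = 0.975). For both genes the hearts straddled the livers, with heart allograft 2 lowest and heart allograft 3 highest of all 6 arrays. The intervals span more than 2-fold in either direction, so these genes are not shown to be equal.

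Of 39 mitosis and G2/M genes, 4 (10.3%) were higher and 0 lower, and 36 of the 39 differences were above 0, with a median of 0.44. The share of all genes above 0 was not computed. Relative to the 6 arrays, the list mean was 0.11, -0.09 and 0.59 on the heart arrays and -0.35, -0.28 and 0.02 on the liver arrays. Heart allograft 3 was thus the highest, and heart allograft 2 lay below liver allograft 3. Espl1, the separase that cuts cohesin, had the largest difference of the list (1.20, SE 0.19, adjusted P = 0.00732), and Ccnb1 (0.88), Ccnb2 (0.67) and the centromeric histone gene Cenpa (0.65) were the others, all below 2-fold. Each of these 3 lost its call with 5 of the 6 arrays left out in turn, all but heart allograft 1 for Ccnb1, heart allograft 2 for Ccnb2 and liver allograft 3 for Cenpa. Of 39 DNA replication and S phase genes, 5 (12.8%) were higher and 2 lower, with a median of 0.39. The helicase gene Mcm5 read 11.48, 11.18 and 12.20 against 11.01, 10.94 and 10.93, without overlap, and was not called (0.66, 95% interval -0.04 to 1.35, adjusted P = 0.149). Mcm10, an initiation factor, was lower in the hearts at 10.11, 9.77 and 10.87 against 12.08, 12.88 and 12.35 (-2.19, SE 0.36, adjusted P = 0.0078). It was also lower in heart controls than in liver controls. Gins2, of the replicative helicase, was higher (1.38, SE 0.27, adjusted P = 0.0149) but not without heart allograft 3 (adjusted P = 0.0574). Without heart allograft 3 the S phase list held 0 higher genes and the mitosis list 1, without heart allograft 2 they held 3 and 6, without heart allograft 1 they held 5 and 2, and without liver allograft 1 or 2 they held 1 and 1. Within the shared slide they held 0 and 1, with medians of 0.14 and 0.15, and with 75th percentile scaling 1 and 1.

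Promoters of division genes are set beside those above because other elements are known from them. The same windows were searched for the E2F sites TTTGGCGC and TTTCCCGC and for the cell cycle homology region TTTGAA. Mcm6, a helicase subunit that was not called (0.39, adjusted P = 0.478), held 2 matches to TTTGGCGC (chr1:128359656-128359955, minus strand), and Top2a held 2 to TTTGAA (chr11:99024140-99024439, minus strand), all in capitals.
Mcm6: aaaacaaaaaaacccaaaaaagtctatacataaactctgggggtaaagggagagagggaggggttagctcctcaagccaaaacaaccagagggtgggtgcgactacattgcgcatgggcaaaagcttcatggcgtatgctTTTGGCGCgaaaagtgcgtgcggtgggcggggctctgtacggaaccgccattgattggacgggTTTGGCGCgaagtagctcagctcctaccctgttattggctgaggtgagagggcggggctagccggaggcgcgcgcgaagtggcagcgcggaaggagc
Top2a: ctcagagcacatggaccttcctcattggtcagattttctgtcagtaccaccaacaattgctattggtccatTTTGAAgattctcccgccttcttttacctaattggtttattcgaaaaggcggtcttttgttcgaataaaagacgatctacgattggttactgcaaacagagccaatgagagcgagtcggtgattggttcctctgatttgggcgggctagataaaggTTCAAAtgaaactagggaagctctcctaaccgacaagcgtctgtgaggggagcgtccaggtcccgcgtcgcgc
TTTGAA was in 25 of 33 mitosis promoters (75.8%) against 20.2% of all, and TTTGGCGC in 8 of 31 S phase promoters (25.8%) against 0.585%. The interferon-stimulated response element was in 1 of the 33 and 0 of the 31.

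Of 23 cyclin, inhibitor and growth genes, 8 (34.8%) were higher and 1 lower, and 4 were higher without heart allograft 1 or 3 or liver allograft 1 or 2, and 3 within the shared slide. Cdkn1a, the p53-induced inhibitor p21, read 10.55, 11.09 and 10.59 in the hearts and 8.67, 7.58 and 8.80 in the livers (2.39, SE 0.38, adjusted P = 0.00693). Ccng1 (2.01) and Gadd45b (2.11), both stress-induced, were also higher. Mycn was below background in all hearts and at least 5.88-fold higher in the livers (adjusted P = 0.0205), with the call lost without heart allograft 1 or 3 or liver allograft 1.

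**Figure D4:**
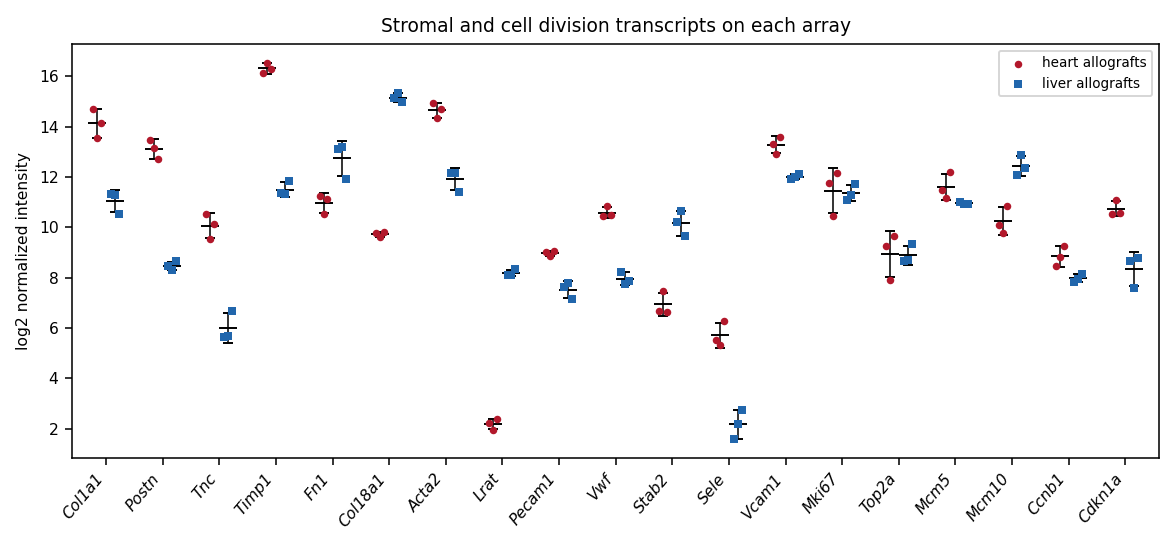
Log2 normalized intensity (y axis) of 19 stromal and cell division transcripts on each of the 3 heart (circles) and 3 liver (squares) allograft arrays, with mean and SD; levels are comparable within a gene only. Timp1, Postn and Tnc lie 4.06 to 4.82 higher in the hearts, Col18a1, Lrat and Stab2 lower, and Mki67 and Top2a overlap.

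The same genes were read in the control organs. Of the 309 called list genes, 251 had control arrays that were separated in the same direction as the allografts, 43 had overlapping controls and 15 were separated the other way. The same shares over all called genes were not computed, so these counts are not shown to be particular to the lists. The same direction held for 28 of 30 chemokine and cytokine genes that were higher, 11 of 14 cytotoxic and NK genes, and 4 of 13 antigen presentation genes. In the interferon-gamma list it held for 12 of 24, with 8 overlapping and 4 the other way. Gzmb read 6.57 to 7.24 in heart controls and 5.34 to 6.72 in liver controls, which overlap, against 14.35 to 15.41 and 12.76 to 13.01 in the grafts on the same 12-array scale. Cd274 read 7.55 to 7.82 in heart controls and 5.70 to 7.04 in liver controls. Mki67 read 10.52 to 11.25 in heart controls against 8.27 to 8.69 in liver controls and Top2a 7.24 to 8.04 against 3.87 to 5.69, separated in both cases, whereas the grafts overlapped. The liver control arrays were the dimmest of the series, with a 75th percentile of raw signal of 92.1 to 226 against 1021 to 1247 for the heart controls, and lay on other slides than the grafts. The part of signal and slide in the control differences was not tested.

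**Figure D5:**
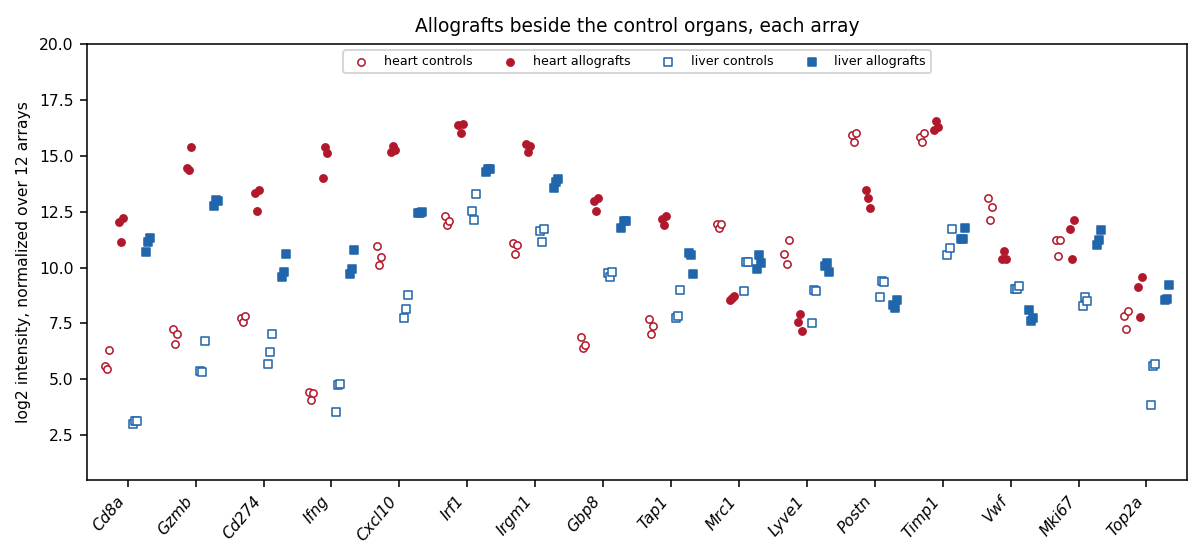
Log2 intensity normalized over 12 arrays (y axis) of 16 genes on each array of heart controls (open circles), heart allografts (filled circles), liver controls (open squares) and liver allografts (filled squares). Cd8a, Gzmb, Cd274 and Ifng lie low in both control organs and high in both grafts, Postn, Timp1 and Vwf lie higher in both heart groups, and Irgm1, Gbp8, Tap1, Mrc1 and Lyve1 change order between controls and grafts.

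Transcripts not well above background on any of the 6 control arrays leave out the genes of the resting organs. Such probes that were well above background on all 3 arrays of at least 1 graft numbered 72 and stood for 42 named genes, of which 11 were higher and 10 lower in the heart allografts, with 6 genes measured on all 6 graft arrays. Gm12185, listed by RefSeq also as Irgb2b1, an immunity-related GTPase name, read 10.11, 9.24 and 9.94 in the hearts and 4.0, 4.26 and 4.12 in the livers (5.63, SE 0.25, adjusted P = 8.2e-05). Ccl1, a chemokine of activated T cells, was below background in the livers and at least 16.7-fold higher in the hearts (adjusted P = 0.00212). Nos2, described above, also belonged to this set. Gpr33, a chemoattractant-like receptor that was above background on 1 liver array, differed by 2.96 (SE 0.12, adjusted P = 5.94e-05). Il3, at least 2.54-fold higher, read 6.91 in heart allograft 2 against 4.11 and 3.92, and its call was lost without heart allograft 1 or without any single liver allograft. Nup210l, a nucleoporin homologue, was at least 1.66-fold higher and lost its call without heart allograft 3 or liver allograft 1. Those higher in the livers included Mab21l4 (at least 2.66-fold), Tnfaip8l3 (at least 2.03-fold), Scn8a (at least 1.59-fold), Umod (at least 1.53-fold) and Serpina12 (at least 1.46-fold), all low signals. The call on Umod, the kidney protein uromodulin, was lost without heart allograft 1 or 3 or liver allograft 2. A gene could enter this set through 1 graft alone, so these counts describe it and support nothing.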

How the data were processed

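Total RNA of heart and liver grafts was labelled with Cy3 and hybridised to 1-colour Agilent mouse arrays. The deposited files are the authors' Feature Extraction output, and the values used are the processed signal, a background-subtracted intensity per spot on a linear scale, with no normalization between arrays. Spots marked as outliers and control spots were left out (65 to 92 outlier spots per array), spots of a probe were averaged, and log2 intensities were quantile normalized over the 6 arrays. The files carry no gene names. Accessions without their version named 26689 of 41174 probes (64.82%) for 18217 symbols through RefSeq (GRCm38.p6), and a gene was read from its probe with the highest mean over the 6 arrays.

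Groups were compared with limma 3.58.1 (lmFit and eBayes) in R 4.3.3, with Benjamini-Hochberg adjustment over all probes and a threshold of 0.05. A permutation test of 3 against 3 arrays cannot give a two-sided P-value under 0.1, so none is given. Promoter windows ran from 250 bases before to 50 after the start. The number of arrays limits the precision. On simulated data of 41155 probes, the fit called 128 of 200 probes changed by 3 on the log2 scale and 8 unchanged ones. In the grafts 6748 and 5284 probes were called, and the Benjamini-Hochberg cutoff depends on the share of changed probes. The simulation therefore does not give the share of such differences that was missed in the grafts. Controls were set beside the grafts after quantile normalization over 12 arrays, with no test.

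The members and gene lists were chosen with earlier results of these data known. Genes were named by a rule: a set of anchor genes, the called gene with the largest difference in each direction of each list (groups not overlapping, above background on all arrays of at least 1 group), and the 6 largest in each direction among transcripts below background in all controls. The anchor genes H2-Ea, Ighm, Mx1 and Ccnd1 matched no probe and were not analysed here. Other list genes named were singled out after their values were seen. Some genes that the rule or the lists hold are not reported here.

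Alternatives were 75th percentile scaling, normalization over 15 arrays, normexp (offset 50) on median spot signals, a filter on dim probes, outlier spots kept, a trended prior, 1 fit of the 5 groups, replicate and slide blocks, the slide with both groups, each array left out, the median over a gene's probes, and, for counts of calls, Bonferroni adjustment, the methods' t-test and the methods' standardized fold change (SFC), the difference of medians over a spread taken from 1000 probes of neighbouring level.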

Additional observations from a re-analysis of the deposited data

Results flagged for a closer look

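For 15 called genes, every control array of one organ lay on the other side of every control array of the other organ from the order seen in the allografts. The difference between the 2 contrasts was not tested, and the liver control arrays were the dimmest of the series. Differences below are heart minus liver, normalized over 12 arrays, first in the controls and then in the allografts. The allograft calls of Psmb9, Adar, Gbp2b, Gbp8, Osm, Nlrc5, Irgm2 and Tnfrsf4 were lost with one array or another left out: without heart allograft 1 for Psmb9, Adar, Gbp2b, Gbp8 and Nlrc5, heart allograft 2 for Psmb9, heart allograft 3 for all 8, liver allograft 1 for all 8, liver allograft 2 for all but Nlrc5, and liver allograft 3 for Osm (adjusted P of up to 0.133). Most belonged to the interferon lists and were lower in heart controls but higher in heart allografts. Among GTPases, Gbp2b was at -5.53 and 0.74, with its heart control level above background on 0 arrays, Gbp8 at -3.10 and 0.91, Irgm1 at -0.60 and 1.61, and Irgm2 at -1.04 and 1.43. Among genes of antigen presentation and its control, the peptide transporter gene Tap1 was at -0.82 and 1.80, the immunoproteasome subunit gene Psmb9 at -0.68 and 0.79, and the class I transactivator gene Nlrc5 at -1.60 and 1.61. The interferon-stimulated gene Ifi35 was at -0.97 and 1.07, the RNA-editing enzyme gene Adar at -0.83 and 0.54, the cytokine gene Osm at -0.64 and 1.41, and Tnfrsf4, the T cell costimulator OX40, at -1.60 and 1.65. The others were higher in heart controls and lower in heart allografts. They were genes of resident macrophages and vessels: Cd163 at 0.83 and -2.09, Mrc1 at 2.08 and -1.59, the hyaluronan receptor gene Lyve1 at 2.19 and -2.47, and the water channel gene Aqp1 at 1.60 and -1.22.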

How the results depend on the processing

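No named gene that was called changed sign under any alternative run. Where groups do not overlap, that is largely fixed in advance and is no test. Of 78 such calls, 4 were lost with 75th percentile scaling, 4 with normexp, 12 with a replicate block and 15 with a slide block. With the replicate block, 4681 probes were higher and 4076 lower and the interferon lists held 3 lower genes. Same-numbered arrays did not deviate together (correlations of 0.03, -0.06 and -0.04). The labels do not say that the numbers pair samples, and these correlations cannot settle it. Why calls were lost under the block was not tested. Higher probes numbered 3661 within the shared slide. With Bonferroni adjustment 233 were higher and 479 lower, with the methods' t-test and Bonferroni 52 and 143 (5145 and 4178 with Benjamini-Hochberg), and with SFC 405 and 923. The share of calls that were higher was 56.1%, and 32.7%, 26.7% and 30.5% under those 3 Bonferroni settings. With normexp the list medians were 0.62 (leukocyte), 1.12 (interferon) and 1.35 (stromal). The interferon median was 1.23 with 75th percentile scaling, 1.52 over all probes of a gene, and 1.28 to 1.46 with an array left out. Within the shared slide 29 leukocyte, 45 interferon and 4 cell division genes were higher, and 16, 2 and 1 lower. Higher cell division genes numbered 7 with 75th percentile scaling or a slide block, and 5 to 16 with an array left out. Signs turned only for genes that were not called: Cd3e (0.21 with a slide block or within the slide), Pdcd1 (-0.089 in both), Mki67 (-0.26 in both, -0.024 with 75th percentile scaling, and -0.26 to 0.59 with an array left out) and Top2a (-0.38 in both, -0.22 over all probes, and -0.31 to 0.56 with an array left out). The cause was not tested. With 75th percentile scaling the median of all probes was 0.10, and with dim probes removed 0.14.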

Other observations

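Liver allografts were also harvested on POD8. Their levels, normalized over all 15 arrays, are given with SD and n = 3 a group and with no test, as the days differ from those of the heart allografts. Ifng was 14.84 ± 0.75 in the heart allografts on POD5, 10.13 ± 0.58 in the liver allografts on POD5 and 10.52 ± 0.16 in those on POD8, still lower in the livers by 4.31 on the log2 scale. Cxcl10 was 12.44 ± 0.04 and 12.82 ± 0.15 in the livers and 15.27 ± 0.12 in the hearts. Ccl5 was 13.28 ± 0.33 and 14.12 ± 0.15 in the livers, against 15.80 ± 0.14 in the hearts. Division genes went different ways. Mki67 was 11.28 ± 0.34 and 10.38 ± 0.24 in the livers, and Top2a 8.76 ± 0.38 and 7.62 ± 0.18, against 11.38 ± 0.91 and 8.81 ± 0.94 in the hearts, while Mcm10 was 12.38 ± 0.42 and 12.75 ± 0.50 in the livers and 10.13 ± 0.58 in the hearts. For some genes the order of the grafts turned on POD8. Camp was 5.61 ± 1.05 in the hearts and 1.50 ± 0.56 and 7.37 ± 1.32 in the livers, Jchain 8.24 ± 0.26 in the hearts and 6.64 ± 0.81 and 8.37 ± 0.42 in the livers, and Ubd 14.40 ± 0.49 in the hearts and 15.11 ± 0.67 and 14.07 ± 0.32 in the livers. Clec4f, the Kupffer cell lectin, was 12.53 ± 0.22 and 13.17 ± 0.15 in the livers. Transcripts not well above background in either control organ also included Il12rb2, a receptor chain of interleukin 12 on T and NK cells, and Cd160, an NK and T cell receptor, both higher in the heart allografts (1.81, adjusted P = 0.00971, and 1.02, adjusted P = 0.027, by limma). Both were chosen after their values were seen.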
